A study of Mus musculus with 8 samples.

Results

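The replication-dependent histone genes measured here were 69 of the 53090 genes of the deposited tables. Every gene whose symbol begins with Hist and a cluster number from 1 to 4 was taken, and 1 name marked as a pseudogene (-ps) was left out. They comprised 6 genes of the linker histone H1, 20 of H2A, 18 of H2B, 12 of H3 and 13 of H4. Annotation placed 55 of them on chromosome 13 (chr13:21715763-23934851, GRCm38), 10 on chromosome 3 (chr3:96219865-96270132), 2 on chromosome 11 and 1 on chromosome 6, and *Hist1h2al*, annotated as a processed pseudogene, lay apart on chromosome 13. *Hist1h2aj* was annotated as an unprocessed pseudogene, and the remaining members as protein-coding.

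P7 (postnatal day 7) sciatic nerves were compared by total RNA sequencing, 4 from controls and 4 from *Nae1* cKO mice. *Nae1* encodes a subunit of the enzyme that activates NEDD8, a small protein attached to cullins and other targets. The *Nae1* cKO mice carried a Cre that recombines in Schwann cells, with a homozygous floxed *Nae1* allele whose exon 4 is removed, so endothelial cells, macrophages, fibroblasts and muscle of the same nerves kept the gene. Controls, labelled WT, were littermates without the Cre that carried *Nae1* f/+ or f/f, and so were not of wild-type sequence at the locus. The nerves are named by a letter and a number, WT K1, L3, L4 and L9 and *Nae1* cKO K2, L1, L5 and L8, as in the labels, which do not say what the letters stand for.

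Libraries held 12962798 to 14766770 expected counts, estimated numbers of reads per gene. Levels are given as CPM, counts per 1000000 scaled between nerves by the trimmed mean of M-values, or as TPM, the transcript share that also corrects for length. TPM was used as deposited, without that scaling between nerves. *Nae1* itself was at 89.8, 81.3, 77.7 and 82.7 CPM in the WT nerves K1, L3, L4 and L9 and at 57.1, 57.2, 48.9 and 43.8 CPM in the *Nae1* cKO nerves K2, L1, L5 and L8, without overlap (log2 fold change -0.68 ± 0.10 (SE), adjusted p = 2.8e-04 by edgeR's quasi-likelihood test). Some nerves stood apart. K2 had 4.696% of its counts on the noncoding RNA Rn7sk, and L1, L5 and L8 had 1.94 to 2.43%. The WT nerves L4 and K1 had the highest summed level of 13 skeletal muscle markers, 2196 and 1342 CPM, against 66.4 to 374 CPM in the other 6 nerves. In bulk tissue, fewer cells of a type and less RNA per cell cannot be told apart.

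Histone proteins package DNA, and a cell that copies its genome needs new histones at the same time. The replication-dependent genes supply them in S phase. They are mostly single-exon genes in clusters, and many encode nearly the same protein. Their messenger RNAs are unusual in ending at a conserved stem-loop rather than in a poly(A) tail. The stem-loop is bound by SLBP and cut with the help of the U7 small nuclear ribonucleoprotein, and the messenger RNAs are degraded when DNA synthesis stops. Postnatal Schwann cells normally leave the cell cycle as they begin to myelinate. The libraries were made from total RNA after removal of ribosomal RNA, a preparation that does not select on poly(A).

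GENCODE annotation gave 64 of the 69 genes a single exon in every transcript. A 16-base stem-loop, with a 6-base-pair stem and a 4-base loop, was found after the coding part in 44 genes, at a median of 31 bases past it. The search asked for a perfectly paired stem that starts with GG and ends with CC, and a loop that starts with TT. Other forms were therefore not found. Only transcripts were searched, so a stem-loop within an intron was not found either. The most common form of the stem-loop occurred in 26 genes, the second in 7 and the third in 6. These forms are shown here in genes whose levels are given later, with the stem-loop in capitals, 5 flanking bases on each side in lower case, in the sense of the gene and as DNA letters (GENCODE transcripts, GRCm38).
Hist1h2bm, chr13:21722506-21722521 (+ strand): acaaaGGCTCTTTTCAGAGCCactaa
Hist1h3b, chr13:23752820-23752835 (+ strand): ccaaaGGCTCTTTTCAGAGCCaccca
Hist1h4c, chr13:23698089-23698104 (- strand): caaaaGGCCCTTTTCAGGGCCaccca
Hist1h2bb, chr13:23747203-23747218 (+ strand): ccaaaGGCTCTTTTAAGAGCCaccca
*Hist1h2bm* and *Hist1h3b* shared the most common form, *Hist1h4c* held the second and *Hist1h2bb* the third.

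Of the 69 genes, 63 had counts high enough to be tested. The 6 others were *Hist1h2ba* of the H2B class and *Hist1h2aa*, *Hist1h2ah*, *Hist1h2ai*, *Hist1h2aj* and *Hist1h2al* of the H2A class, none of which exceeded 1.01 CPM in any nerve. In *Nae1* cKO nerves 10 histone genes were higher and 2 lower at an adjusted p under 0.05 (edgeR), of 63. Across all 17090 tested genes, 14.1% were higher and 12.3% lower, so the share of histone genes called higher, 15.9%, was near that of all genes. Only *Hist1h2bp* was called higher by over 2-fold, against 4.25% of all genes. With libraries scaled to their totals instead, which moved the median of all genes to a log2 fold change of 0.16, 13 histone genes were higher and none lower, with 2 lower at an unadjusted p under 0.05. The median log2 fold change was 0.26 over the 63 histone genes and 0.0066 over all genes, with 45 histone genes above 0 and 18 below. All 4 *Nae1* cKO nerves lay above all 4 WT nerves for 11 of the 63, against 14.9% of all tested genes. For none of the 63 did they lie below, and the share of all tested genes lying below was not counted.

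The calls were unevenly spread over the classes. Of the 10 higher genes, 7 were among the 17 tested H2B genes, 2 among 12 H3 genes and 1 among 6 H1 genes. Neither the 15 tested H2A genes nor the 13 H4 genes held a call by edgeR in either direction. At an unadjusted p under 0.05, 1 H2A and 1 H4 gene were higher and none lower. DESeq2 and limma-voom each called 1 H2A gene, *Hist1h2ab*, and no H4 gene. The same gene passed in edgeR with the letter of the sample name as a term (adjusted p = 0.043), with library totals (adjusted p = 0.016) and with no low count filter (adjusted p = 0.037), and *Hist1h4f* passed with library totals (adjusted p = 0.017). Both lower genes were H2B genes. WT nerve L4 was the lowest of the WT nerves for 52 of the 63 genes and the lowest of all 8 nerves for 45, and it was also the nerve with the most muscle RNA. Without the WT nerves K1 and L4, 7 genes were higher, 6 of them H2B and the other *Hist2h3c1*, and 3 lower (*Hist1h1e*, *Hist3h2a* and *Hist1h2bc*), with a median log2 fold change of 0.073. Without the *Nae1* cKO nerve K2, 12 were higher and 4 lower. The part of muscle RNA in these values was not tested.

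**Figure D1:**
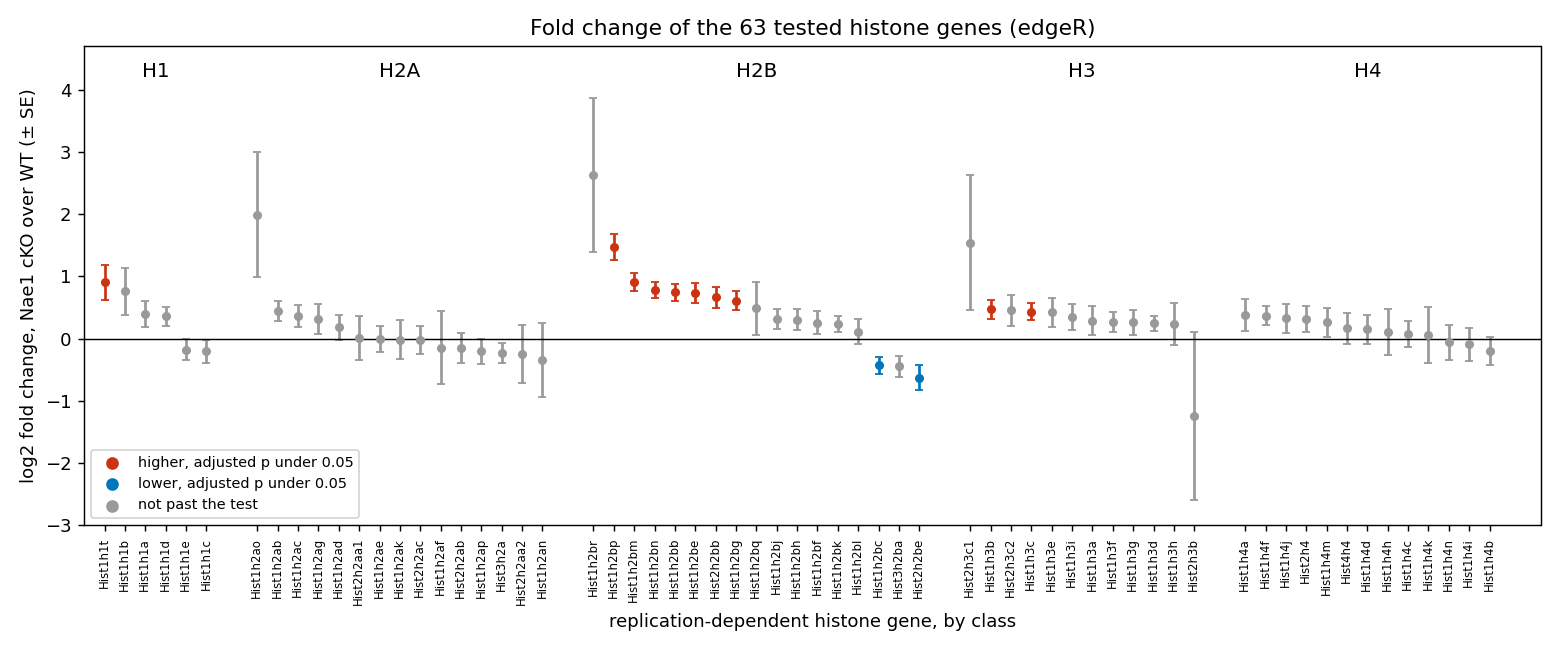
Log2 fold change (vertical axis, *Nae1* cKO over WT, bars are SE) of the 63 tested histone genes, sorted within each class along the horizontal axis. Red points were higher and blue points lower at an adjusted p under 0.05. The red points cluster among the H2B genes, and no H2A or H4 gene is coloured.

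H2B, which pairs with H2A in the nucleosome, held the clearest differences. *Hist1h2bm* (chr13:21722044-21722567) was at 21.3, 27.4, 15.2 and 22.5 CPM in the WT nerves K1, L3, L4 and L9 and at 37.99, 42.9, 40.1 and 41.4 CPM in the *Nae1* cKO nerves K2, L1, L5 and L8. The lowest *Nae1* cKO nerve thus lay above the highest WT nerve, and the difference was 1.88-fold (log2 fold change 0.91 ± 0.14, adjusted p = 6.1e-04). *Hist1h2bb*, the H2B gene with the most reads, was at 45.4, 54.01, 34.1 and 53.1 CPM in WT and 76.05, 87.9, 79.5 and 69.1 CPM in *Nae1* cKO nerves, in the same nerve order. Its groups did not overlap either (log2 fold change 0.74 ± 0.14, adjusted p = 0.0017). *Hist1h2bg* was at 42.4, 50.2, 30.2 and 52.6 CPM in WT nerves and 69.7, 71.8, 59.2 and 66.3 CPM in *Nae1* cKO nerves. All of its *Nae1* cKO values exceeded those of WT, by a log2 fold change of 0.61 ± 0.15 (adjusted p = 0.011).

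*Hist1h2bp* had the largest fold change of the called genes at a low level. Its values were 2.41, 2.75, 1.58 and 2.62 CPM in WT and 7.39, 5.16, 5.91 and 7.53 CPM in *Nae1* cKO nerves, 2.77-fold apart (log2 fold change 1.47 ± 0.21, adjusted p = 2.8e-04). *Hist1h2bn* was at 19.9, 25.1, 15.4 and 20.4 CPM in WT nerves and varied little among *Nae1* cKO nerves, at 34.9, 34.8, 35.3 and 33.4 CPM (log2 fold change 0.77 ± 0.13, adjusted p = 7.5e-04). *Hist1h2be* was higher with a log2 fold change of 0.73 ± 0.16 (adjusted p = 0.0055) and *Hist2h2bb*, on chromosome 3, with 0.66 ± 0.16 (adjusted p = 0.011). *Hist1h2be* overlaps the linker histone gene *Hist1h1e* on the same strand, so reads of the shared stretch could belong to either, and *Hist1h1e* had a log2 fold change of -0.18 ± 0.17 (adjusted p = 0.49). *Hist2h2bb* had no 75-base window of its own, since all of its sequence also lies in the antisense gene *Gm20628*, which was itself higher (0.57 ± 0.14, adjusted p = 0.011). Summed with *Gm20628* and *Hist2h3b*, it gave 71.6, 94.2, 61.9 and 88.6 CPM in WT and 93.9, 129, 120.1 and 114 CPM in *Nae1* cKO nerves, and the groups overlapped, with K2 just below WT L3. *Hist1h2bm*, *Hist1h2bn*, *Hist1h2bp* and *Hist2h2bb* were singled out after their values were seen, because they were among the genes called higher. Leaving out any 1 of the 8 nerves kept the call of all 7 H2B genes, and leaving out both K1 and L4 kept all but that of *Hist2h2bb* (adjusted p = 0.13). When only the 6 L nerves were fitted, 5 of the 7 calls held, and *Hist1h2be* (adjusted p = 0.054) and *Hist1h2bg* (adjusted p = 0.08) missed the threshold. By limma on log2(TPM + 0.1), *Hist1h2bg* (adjusted p = 0.053) and *Hist2h2bb* (adjusted p = 0.078) missed it, and *Hist2h2bb* also missed it on log2(TPM + 1).

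The 2 lower genes were H2B genes too. *Hist1h2bc* was at 56.3, 54.9, 44.5 and 66.2 CPM in WT and 49.2, 33.4, 40.5 and 41.9 CPM in *Nae1* cKO nerves, so that K2 lay within the WT range and the other 3 below it (log2 fold change -0.43 ± 0.13, adjusted p = 0.035). *Hist2h2be* was at 5.698, 8.11, 10.3 and 9.14 CPM in WT nerves and 6.72, 5.64, 4.89 and 4.25 CPM in *Nae1* cKO nerves, and WT nerve K1 lay among the *Nae1* cKO values (log2 fold change -0.63 ± 0.20, adjusted p = 0.038). Each of these calls was lost on leaving out any 1 of 6 nerves, with adjusted p reaching 0.099 for *Hist1h2bc* (K1, L1, L3, L5, L8 or L9) and 0.12 for *Hist2h2be* (L1, L3, L4, L5, L8 or L9). *Hist3h2ba*, on chromosome 11, was at 9.13, 11.9, 9.33 and 12.8 CPM in WT and 9.78, 6.06, 7.48 and 8.36 CPM in *Nae1* cKO nerves and did not pass the test (-0.44 ± 0.17, adjusted p = 0.079).

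The models of *Hist1h2bc* and *Hist2h2be* run well past the coding part, by 742 and 2192 bases, and neither held the stem-loop searched for. The model of *Hist1h2bc* has 2 exons, and its intron was not searched, so a stem-loop there would have been missed. Length alone did not set *Hist1h2bc* and *Hist2h2be* apart, since the model of the higher gene *Hist1h2be* runs 1906 bases past its coding part. Of the 7 higher H2B genes, *Hist1h2bb*, *Hist1h2be*, *Hist1h2bg*, *Hist1h2bm* and *Hist1h2bp* held the stem-loop, and the models of *Hist1h2bn* and *Hist2h2bb* stop within 30 bases of the coding part, where it cannot be seen. Over all classes, 8 of the 44 tested genes with a stem-loop were higher and none lower (edgeR), with 1 lower at an unadjusted p under 0.05. Among the 8 genes with at least 30 bases after the coding part and no stem-loop found, none was higher, with 0 at an unadjusted p under 0.05, and 2 were lower, and their median log2 fold change was 0.32, against 0.28 with a stem-loop. Of these 8, the models of *Hist2h3b* and *Hist1h1a* run only 37 and 48 bases past the coding part. The stem-loops found began 21 to 58 bases past it, so one could lie beyond the ends of these models. *Hist1h2bq* and *Hist1h2br*, also among the 8, have models of up to 3 exons, whose introns were not searched. The 11 tested genes whose models stop within 30 bases of the coding part held 2 of the higher calls. This split was drawn after the calls were known and was not tested.

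The remaining tested H2B genes did not pass the test. *Hist1h2bj*, *Hist1h2bh*, *Hist1h2bf*, *Hist1h2bk* and *Hist1h2bl* had log2 fold changes from 0.11 to 0.32. *Hist1h2br* and *Hist1h2bq* are near-copies, with 87.5% of the 75-base windows of *Hist1h2br* also present in *Hist1h2bq*, and the counting divided their reads unevenly. *Hist1h2br* was at 17.6, 2.09, 19.6 and 0.348 CPM in the *Nae1* cKO nerves K2, L1, L5 and L8, while *Hist1h2bq* was at 17.99, 30.2, 10.9 and 39.2 CPM, so that nerves high for one were low for the other. Their sum was steadier, 14.5, 26.2, 17.4 and 18.4 CPM in WT nerves and 35.6, 32.3, 30.5 and 39.5 CPM in *Nae1* cKO nerves. The summed values did not overlap between groups, unlike those of either gene, and the ratio of their means was 0.85 on the log2 scale, which was not tested.

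Promoters of H2B genes are known for an octamer element, the letters ATTTGCAT, which binds the factor encoded by *Pou2f1*. RefSeq promoters (GRCm38.p6, 250 bases before to 50 after the start) were matched for 62 of the 69 genes, and each motif was searched on both strands. The octamer was present in 7 of 16 H2B and 7 of 18 H2A promoters, in none of the 6 H1, 10 H3 and 12 H4 promoters, and in 1.74% of all 32851 promoters. TATAAA was in 35 of the 62 histone promoters, against 13.6% of all, and CCAAT was in 53, against 37.4%, with only 3 of 12 H4 promoters holding it. Promoters from 100 bases before to 10 after the start are printed for 3 higher H2B genes with the octamer and for *Hist1h2bp*, whose promoter lacked those letters. Capitals mark the octamer, TATAAA and CCAAT on either strand.
Hist1h2bb, chr13:23746634-23746743 (+ strand): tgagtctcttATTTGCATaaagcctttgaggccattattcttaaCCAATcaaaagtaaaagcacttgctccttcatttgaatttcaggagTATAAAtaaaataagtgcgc
Hist1h2bg, chr13:23571300-23571409 (+ strand): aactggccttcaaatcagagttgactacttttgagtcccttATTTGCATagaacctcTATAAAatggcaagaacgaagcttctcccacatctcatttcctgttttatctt
Hist1h2bm, chr13:21721944-21722053 (+ strand): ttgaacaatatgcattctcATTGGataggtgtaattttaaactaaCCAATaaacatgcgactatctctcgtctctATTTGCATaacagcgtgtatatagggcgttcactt
Hist1h2bp, chr13:21787388-21787497 (+ strand): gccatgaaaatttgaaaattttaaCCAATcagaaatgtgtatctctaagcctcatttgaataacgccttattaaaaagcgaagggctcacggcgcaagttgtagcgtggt
The octamer was in the promoters of 5 of the 7 higher H2B genes, for *Hist1h2be* in 1 of its 2 promoters. Of the 8 H2B genes that were tested, not called and matched, 1 held it. No promoter was matched for either lower gene, and the remaining octamer promoter belonged to *Hist1h2ba*, which was not tested. The matched promoters of *Hist1h2ac* and *Hist2h2ac*, on the opposite strand beside the lower genes, held the octamer at -130 and -200 from their starts. These octamers thus also lay upstream of *Hist1h2bc* and *Hist2h2be*, between the starts of each pair. The split of the octamer by call was drawn with the calls known and was not tested. Of the 7 H2A genes with the octamer 5 were tested, and none of the 5 passed the test (edgeR), with 1, *Hist1h2ab*, higher at an unadjusted p under 0.05. *Pou2f1* was at 71.2, 71.9, 75.5 and 82.1 CPM in WT and 76.3, 88.9, 86.1 and 79.7 CPM in *Nae1* cKO nerves (log2 fold change 0.14 ± 0.079, adjusted p = 0.23).

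**Figure D2:**
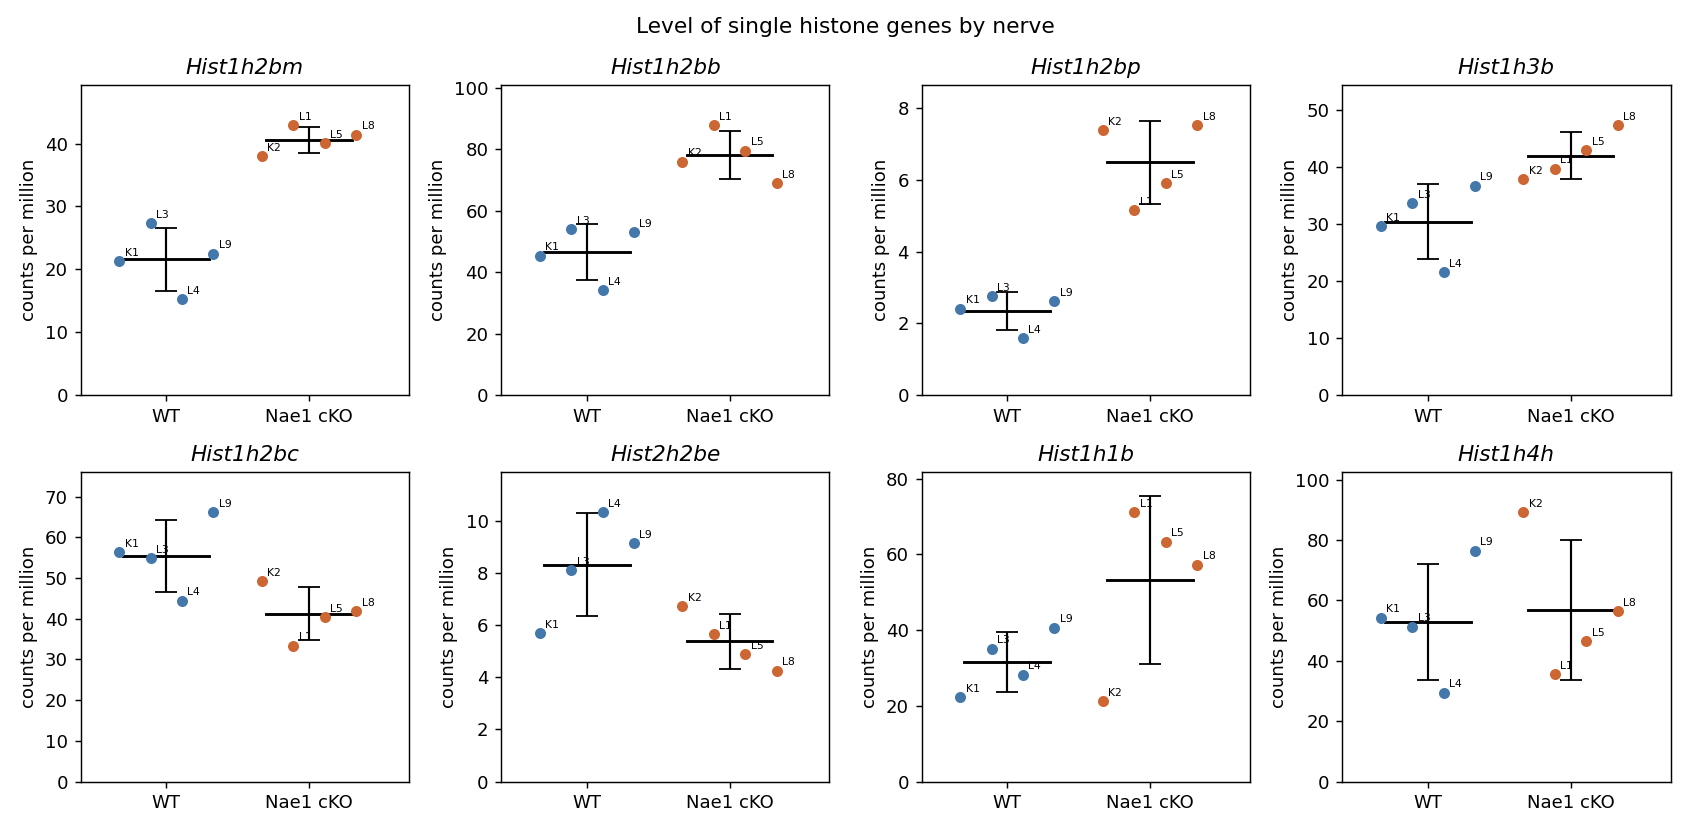
Level of 8 histone genes in each nerve (vertical axes, CPM, from 0), with WT nerves in blue and *Nae1* cKO nerves in orange. Black bars are the mean and SD of 4 nerves. *Hist1h2bm*, *Hist1h2bb*, *Hist1h2bp* and *Hist1h3b* separate the groups, and K2 stands below the other *Nae1* cKO nerves for *Hist1h1b* and above them for *Hist1h4h*.

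H3 genes encode the core histone whose tail carries many of the known modifications. Of 12 tested, *Hist1h3b* and *Hist1h3c* were higher. *Hist1h3b* was at 29.7, 33.7, 21.5 and 36.7 CPM in WT nerves and 37.9, 39.7, 42.97 and 47.3 CPM in *Nae1* cKO nerves. The groups were separated by a narrow gap between WT L9 and *Nae1* cKO K2 (log2 fold change 0.47 ± 0.15, adjusted p = 0.034). *Hist1h3c* was at 16.8, 16, 11.05 and 16.3 CPM in WT and 21.9, 18.9, 20.3 and 20.1 CPM in *Nae1* cKO nerves, with L4 well below the other WT nerves (log2 fold change 0.43 ± 0.13, adjusted p = 0.031). Without L4 neither call held, and without K1 and L4 together the log2 fold changes were 0.25 (adjusted p = 0.23) and 0.32 (adjusted p = 0.13). The call of *Hist1h3b* was also lost without K1, L1, L5 or L8, and that of *Hist1h3c* without L5 or L8. Apart from *Hist2h3b* and *Hist2h3c1*, the remaining H3 genes had log2 fold changes from 0.23 to 0.45, all above 0.

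Levels of *Hist2h3b* and *Hist2h3c1* jumped between nerves. *Hist2h3c1* was at 4.97, 0.869, 0 and 0 CPM in WT nerves and 2.24, 4.04, 6.93 and 3.903 CPM in *Nae1* cKO nerves, and *Hist2h3b* at 6.14, 4.49, 0.4304 and 10.2 CPM and 7.54, 0, 0 and 1.53 CPM. Neither has a 75-base window of its own: the sequence of *Hist2h3c1* lies wholly in *Gm20634* and that of *Hist2h3b* wholly in *Gm20628*. Summed with *Gm20634* and *Hist2h3c2*, *Hist2h3c1* gave 31.9, 37, 32.9 and 40.7 CPM in WT and 36.9, 25.3, 33.99 and 41.5 CPM in *Nae1* cKO nerves, and the groups overlapped. The fold changes of the single genes, with SEs of 1.35 and 1.08, cannot be read as measurements of separate genes.

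Linker histones of the H1 class bind the DNA that enters and leaves the nucleosome. By CPM they took the largest share of histone reads, 30.8% over the 8 nerves, and by length-corrected TPM 13.2%. *Hist1h1b* was at 22.3, 35.04, 28.3 and 40.7 CPM in the WT nerves and at 21.3, 71.1, 63.4 and 57.2 CPM in the *Nae1* cKO nerves K2, L1, L5 and L8. L1, L5 and L8 lay above every WT nerve, and K2 lay below all of them (log2 fold change 0.76 ± 0.38, adjusted p = 0.19). *Hist1h1a* showed the same order, at 45.5, 65.1, 46.2 and 61.3 CPM in WT and 44.6, 89.6, 81.04 and 71.5 CPM in *Nae1* cKO nerves (log2 fold change 0.40 ± 0.21, adjusted p = 0.21). Both genes are wholly distinct in sequence from every other gene at 75 bases. Without K2, the log2 fold change was 1.01 for *Hist1h1b* (adjusted p = 0.0025) and 0.56 for *Hist1h1a* (adjusted p = 0.0096).

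The 2 H1 genes with the most reads had log2 fold changes below 0. *Hist1h1c* was at 141, 178, 124 and 182 CPM in WT and 188, 108, 122 and 125 CPM in *Nae1* cKO nerves, K2 being the highest of all 8 and L1 and L5 the lowest (log2 fold change -0.20 ± 0.18, adjusted p = 0.46). Without K2 its log2 fold change was -0.41 (adjusted p = 0.036). *Hist1h1e* was at 115, 163, 119 and 204 CPM in WT and 125, 121, 145 and 140.4 CPM in *Nae1* cKO nerves, with the WT values spread to both sides of the others. *Hist1h1d* was at 62.9, 102, 61.8 and 91.5 CPM and 89.2, 112, 105 and 101 CPM, and did not pass the test (0.36 ± 0.16, adjusted p = 0.13). The only H1 gene called was *Hist1h1t*, known as a testis linker histone and barely detected here, at 0.804, 1.303, 0.789 and 1.35 CPM in WT and 2.09, 1.39, 2.38 and 2.09 CPM in *Nae1* cKO nerves. Its log2 fold change was 0.90 ± 0.28 (adjusted p = 0.033), from 11 to 35 reads a nerve, and the call was lost without K1, L4, L5 or L8.

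None of the 13 H4 genes passed the test, and their log2 fold changes ran from -0.20 to 0.38 with a median of 0.15. H4 is the core histone with the fewest known protein variants. *Hist1h4d*, the H4 gene with the most reads, was at 56.5, 58.2, 38.6 and 75.6 CPM in WT and 81.1, 43.8, 59.8 and 68.7 CPM in *Nae1* cKO nerves (log2 fold change 0.15 ± 0.23, adjusted p = 0.69). *Hist1h4h* was at 54.3, 51.3, 29.4 and 76.4 CPM and 89.3, 35.5, 46.5 and 56.5 CPM, from a lowest value in WT L4 to a highest in *Nae1* cKO K2 (log2 fold change 0.11 ± 0.36, adjusted p = 0.87). The smallest adjusted p was that of *Hist1h4f*, at 24.7, 29.2, 19.01 and 29.3 CPM in WT and 39.6, 26.8, 32.5 and 32.9 CPM in *Nae1* cKO nerves (log2 fold change 0.37 ± 0.15, adjusted p = 0.096). *Hist1h4a* had a log2 fold change of 0.38 ± 0.25, *Hist1h4c* of 0.073 ± 0.21 and *Hist1h4b* of -0.20 ± 0.23, none past the test. K2 was the highest of all nerves for 9 of the 13 H4 genes.

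Among the 15 tested H2A genes the median log2 fold change was -0.015, with 6 above 0 and 9 below. *Hist1h2ab*, the gene that passed under 8 alternatives, was at 11.9, 15.3, 9.25 and 15.7 CPM in WT and 17.3, 15.9, 19.2 and 18.5 CPM in *Nae1* cKO nerves. Its groups did not overlap, by a narrow margin between WT L9 and *Nae1* cKO L1 (log2 fold change 0.44 ± 0.16, adjusted p = 0.058, from 0.016 with library totals to 0.42 without K1 and L4). *Hist3h2a*, on chromosome 11, was at 26.96, 31.8, 20.8 and 36.9 CPM in WT nerves and 28.1, 23.3, 23.3 and 24.3 CPM in *Nae1* cKO nerves (log2 fold change -0.23 ± 0.15, adjusted p = 0.3). *Hist2h2aa1* and *Hist2h2aa2* had no 75-base window of their own. Together with the overlapping genes *Gm20632* and *Gm20633* they summed to 74.9, 62.7, 40.03 and 89.1 CPM in WT and 96.05, 39.01, 50.5 and 60.4 CPM in *Nae1* cKO nerves, and the groups overlapped. *Hist1h2ao* had the largest log2 fold change of the class, 1.99 ± 1.01, from 0, 1.67, 0.646 and 1.51 CPM in WT and 9.78, 0.766, 1.496 and 3.28 CPM in *Nae1* cKO nerves. K2 alone supplied most of it, and *Hist1h2ao* summed with its near-copy *Hist1h2ap* gave 12.9, 16.7, 8.25 and 16.8 CPM and 19.3, 10.03, 14.2 and 15.7 CPM. The lowest was *Hist1h2an* at -0.34 ± 0.60, from values at or under 2.94 CPM. All 20 H2A genes overlap another annotated gene on the opposite strand, and the strand setting of the counting was not given in the sources used here.

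Summing all genes of a class removes the uncertainty about which copy a read came from within that class. The summed H2B level was 355, 438, 281 and 412 CPM in the WT nerves K1, L3, L4 and L9 and 511, 528, 509.8 and 503 CPM in the *Nae1* cKO nerves K2, L1, L5 and L8. All 4 *Nae1* cKO nerves lay above all WT nerves and within a narrow band, with means of 371 ± 69.9 (SD, n = 4) and 513 ± 10.8 CPM. The H4 sum was 294 ± 83.7 CPM in WT and 328 ± 81.6 CPM in *Nae1* cKO nerves. The H2A sum was 152 ± 42.6 CPM and 149.7 ± 38.7 CPM, and the H1 sum 473 ± 104 CPM and 497 ± 19.7 CPM. H3 genes together reached 164 ± 35.7 CPM in WT and 208 ± 28.7 CPM in *Nae1* cKO nerves, with L1 inside the WT range. H2B was thus the only class whose summed CPM did not overlap between the groups, and the sums were given no test.

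**Figure D3:**
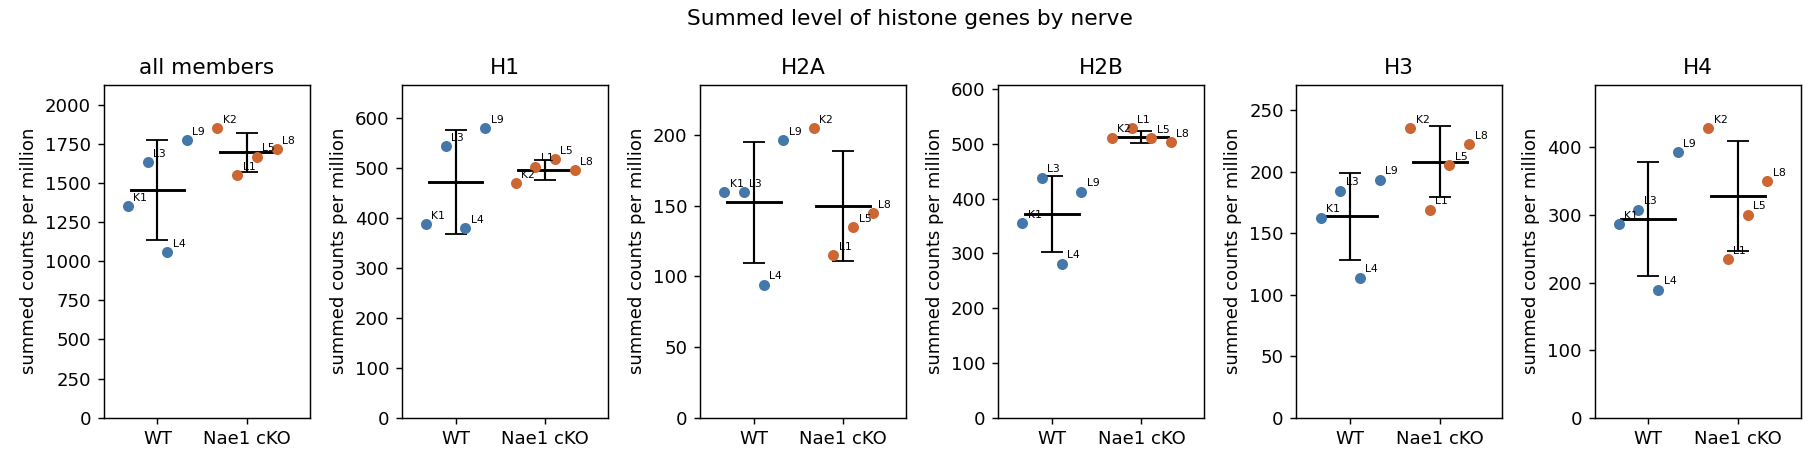
Summed level of all 69 histone genes and of each class in each nerve (vertical axes, CPM, from 0), WT in blue and *Nae1* cKO in orange, with the mean and SD of 4 nerves in black. Only the H2B panel separates the groups. WT L4 is the lowest nerve in every panel.

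All 69 genes together summed to 1351, 1634, 1058 and 1776 CPM in WT nerves and 1850.2, 1549.8, 1668 and 1716 CPM in *Nae1* cKO nerves. The groups overlapped: WT L9 exceeded 3 of the *Nae1* cKO nerves. The ratio of means was 0.22 on the log2 scale and fell to -0.012 without the WT nerves K1 and L4. As a share of all counts, histone genes took 0.10 to 0.165% in WT and 0.172 to 0.184% in *Nae1* cKO nerves. On the length-corrected TPM scale the sums were 1435, 1868, 1284 and 2263 TPM in WT and 1735, 2704, 2379.6 and 2501 TPM in *Nae1* cKO nerves, with K2 inside the WT range. TPM differs from CPM both in the length correction and in the scaling between nerves. On log2(TPM + 1) the median log2 fold change of all tested genes was 0.10. The part of each in the histone values was not tested. H2B was the most abundant class per length, with 36.5% of the histone TPM, followed by H4 with 26.2%. Its TPM sum was 463, 649, 452 and 645 TPM in WT nerves and 587, 1215, 954 and 939 TPM in *Nae1* cKO nerves, where K2 again fell within the WT range. Within a nerve, the ratio of H2B to H2A CPM was 2.23, 2.75, 2.99 and 2.1 in WT and 2.497, 4.6, 3.78 and 3.48 in *Nae1* cKO nerves. L1, L5 and L8 had the 3 highest ratios and K2 lay among the WT nerves.

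Histone genes differed in how much sequence they share with other genes. Of the 63 tested genes, 34 had at least 50% of their 75-base windows found in no other gene, in either orientation, and 29 had fewer. The first held 7 higher and 2 lower calls at a median log2 fold change of 0.28, the second 3 higher and none lower (edgeR, 0.0 at an unadjusted p under 0.05) at 0.25. The SE ranged from 0.125 to 0.375 in the first and from 0.127 to 1.35 in the second. Among H2B genes, 5 of the 9 with mostly unique sequence were higher and 2 lower. *Hist1h2bm* had 83.1% of its windows to itself, *Hist1h2bb* 63.4% and *Hist1h2bn* 27.7%.

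**Figure D4:**
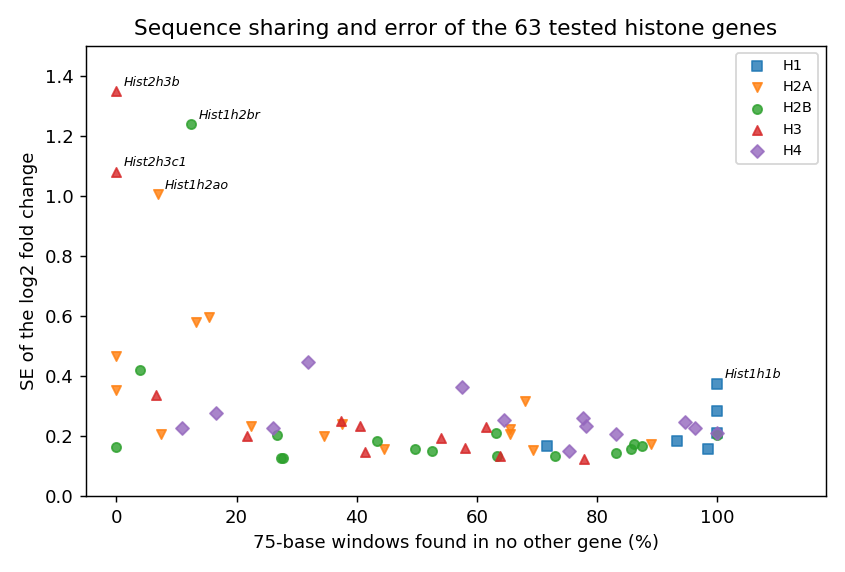
SE of the log2 fold change (vertical axis) against the share of 75-base windows found in no other gene (horizontal axis, %) for the 63 tested histone genes, by class. The 4 genes with an SE above 1, *Hist2h3b*, *Hist1h2br*, *Hist2h3c1* and *Hist1h2ao*, all lie under 15% unique windows.

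The genes that transcribe and process histone messenger RNA were called higher at a share near that of all genes. Of 23 tested, 3 were higher, or 13.04% against 14.1% of all tested genes, and 1 was lower, or 4.35% against 12.3%. Their median log2 fold change was 0.031. *Slbp*, which encodes the stem-loop binding protein, was at 15.9, 20.5, 17.7 and 16.7 CPM in WT nerves and 21.1, 34.3, 32.8 and 24.95 CPM in *Nae1* cKO nerves. The groups did not overlap, although K2 came close to WT L3 (log2 fold change 0.68 ± 0.15, adjusted p = 0.0064). *Eri1*, a 3' exonuclease that acts on the stem-loop end, had a log2 fold change of 0.44 ± 0.13 (adjusted p = 0.025), and *Zcchc11*, a uridylyltransferase linked to histone messenger RNA decay, of 0.27 ± 0.079 (adjusted p = 0.025). For *Eri1*, K2 at 35.2 CPM lay inside the WT range, and the call was lost without K1, L1, L3, L4 or L5. That of *Zcchc11* was lost without K1, L1, L4, L5 or L8. The lower gene was *Dcaf11*, which encodes a substrate receptor of a cullin-RING ligase, at 51.1, 45.5, 59.9 and 49.8 CPM in WT and 37.8, 36.4, 36.98 and 39.7 CPM in *Nae1* cKO nerves (log2 fold change -0.45 ± 0.093, adjusted p = 0.0034). *Npat*, the coactivator that gathers at histone clusters, did not pass the test (0.23 ± 0.087, adjusted p = 0.074). Without K1 and L4, none of the 4 calls held, and *Slbp* had a log2 fold change of 0.60 (adjusted p = 0.093).

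Chaperones escort new histones to DNA. Of 22 tested genes of this list, 8 were higher (36.4%, against 14.1% of all tested genes) and 1 lower (4.5% against 12.3%). Their median log2 fold change was 0.13. *Asf1b*, a chaperone of new H3 and H4, was at 2.41, 3.19, 2.87 and 2.701 CPM in WT and 3.73, 9.68, 9.99 and 10.2 CPM in *Nae1* cKO nerves. K2 lay just above the WT range and the other 3 far above it (log2 fold change 1.59 ± 0.29, adjusted p = 0.0015). *Chaf1b* and *Chaf1a*, subunits of chromatin assembly factor 1, rose by log2 fold changes of 1.34 ± 0.25 (adjusted p = 0.0021) and 0.79 ± 0.19 (adjusted p = 0.0099). *Mms22l* and *Tonsl* encode partners in one complex that reads new H4, and they parted: *Mms22l* was at 10.8, 12.8, 12.2 and 15.4 CPM in WT and 17.6, 26.96, 26.3 and 27.5 CPM in *Nae1* cKO nerves (log2 fold change 0.94 ± 0.16, adjusted p = 8.1e-04). *Tonsl* was at 53.8, 49.7, 52.5 and 51.5 CPM and 43.4, 37.97, 44.1 and 39.7 CPM, lower in all 4 *Nae1* cKO nerves (log2 fold change -0.33 ± 0.079, adjusted p = 0.0088). *Hat1*, *Ssrp1*, *Hjurp* and *Rbbp7* were the other higher genes, at log2 fold changes from 0.33 to 0.46. The groups overlapped for *Hjurp* and *Rbbp7*, whose calls were kept in 3 and 2 of the 8 fits with 1 nerve left out. Without K1 and L4, *Asf1b*, *Chaf1b* and *Mms22l* kept an adjusted p under 0.05, whereas *Tonsl* had a log2 fold change of -0.30 (adjusted p = 0.099) and no longer passed the test. The lower call of *Tonsl* was also lost with library totals, at a log2 fold change of -0.17. It was lost as well by limma on log2(TPM + 1), log2(TPM + 0.1) and log2(FPKM + 1).

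Replication-independent variants are histones made outside S phase, mostly from polyadenylated messenger RNA. Of 10 tested, 2 were higher and 2 lower, 20% each, against 14.1% and 12.3% of all tested genes. Their median log2 fold change was 0.13. *H1f0*, a linker histone known to accumulate in cells that have stopped dividing, was at 244, 274, 218 and 288 CPM in WT nerves and 113, 114, 113 and 102 CPM in *Nae1* cKO nerves. The groups were far apart, with L8 the lowest nerve (log2 fold change -1.21 ± 0.093, adjusted p = 2.6e-06). *H3f3b*, which encodes the replacement form of H3, was at 414, 442, 392 and 531 CPM in WT and 329, 314, 343 and 320.3 CPM in *Nae1* cKO nerves, again without overlap (log2 fold change -0.45 ± 0.10, adjusted p = 0.0043). The call of *H3f3b* was lost by limma on log2(TPM + 1), log2(TPM + 0.1) and log2(FPKM + 1). *H3f3a*, which encodes the same protein, had a log2 fold change of 0.0052 ± 0.087 (adjusted p = 0.97). *H2afz*, the H2A variant found near transcription start sites, was at 87.1, 81.3, 66.3 and 80.2 CPM in WT and 114, 131, 127 and 119 CPM in *Nae1* cKO nerves (log2 fold change 0.64 ± 0.091, adjusted p = 2.7e-04). *Cenpa*, the H3 variant of centromeres, was at 10.1, 12.7, 10.04 and 11.8 CPM in WT and 12.2, 23.97, 23.1 and 23.9 CPM in *Nae1* cKO nerves, where K2 fell within the WT range (log2 fold change 0.90 ± 0.20, adjusted p = 0.0057). *H2afv*, a close relative of *H2afz*, did not pass the test (0.23 ± 0.10, adjusted p = 0.12).

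S phase genes, which encode proteins that copy DNA and supply nucleotides, were higher in 19 of 21 cases (edgeR) and, even at an unadjusted p under 0.05, lower in none, with a median log2 fold change of 0.85. The share called higher was 90.5%, against 14.1% of all tested genes. *Mcm7*, a subunit of the replicative helicase, was at 27.5, 31.8, 29.8 and 30.3 CPM in WT and 41.9, 65, 65.7 and 60.8 CPM in *Nae1* cKO nerves (log2 fold change 0.97 ± 0.13, adjusted p = 1.9e-04). *Rrm1* of ribonucleotide reductase, *Pola1* of DNA polymerase alpha, *Gins2* of the replisome and *Fen1*, which processes lagging strands, had log2 fold changes of 0.90 ± 0.11, 1.04 ± 0.15, 0.72 ± 0.12 and 0.89 ± 0.10, all past the test. The summed level of the list was 363, 438, 401 and 426 CPM in the WT nerves K1, L3, L4 and L9 and 503, 875, 837 and 772 CPM in the *Nae1* cKO nerves K2, L1, L5 and L8. K2 was above every WT nerve but well below the other 3 *Nae1* cKO nerves. In CPM, the summed H2B level of K2 did not stand below the others, and its H4 sum, 428 CPM, was the highest of all 8. In TPM, K2 was the lowest *Nae1* cKO nerve for both classes. Its sums were 587 TPM for H2B, against 939 to 1215 TPM, and 528 TPM for H4, against 546 to 662 TPM. Without K1 and L4, 6 S phase genes passed the test and the median was 0.75. The median of the histone genes, given above, moved from 0.26 to 0.073. The difference between the lists was not tested.

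**Figure D5:**
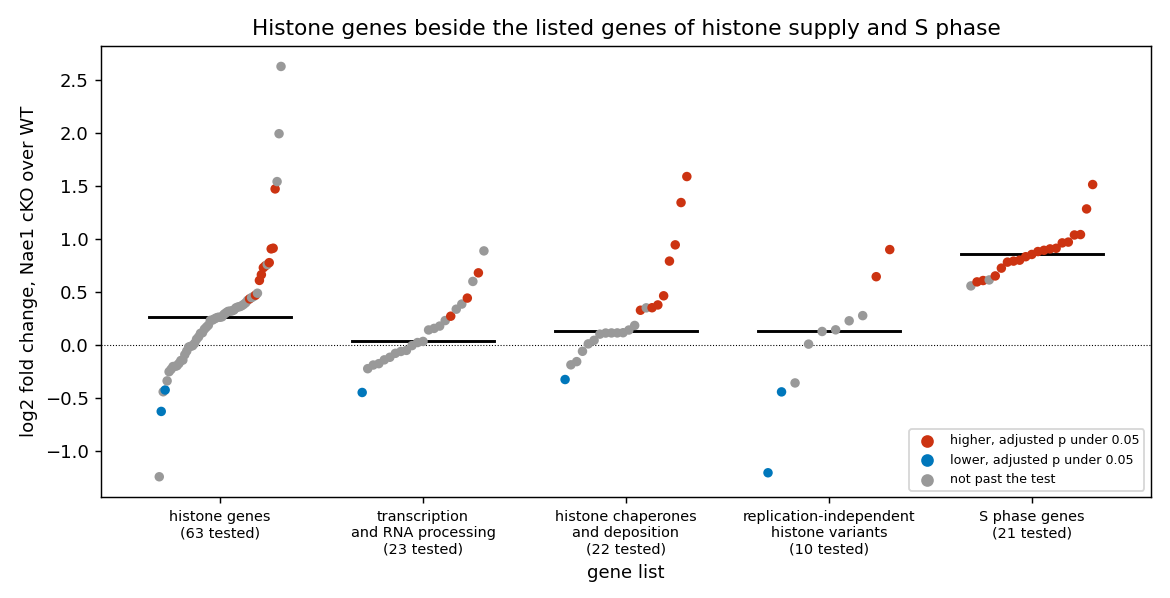
Log2 fold change (vertical axis, *Nae1* cKO over WT) of each tested gene in 5 groups, sorted within each group along the horizontal axis, with the group median as a black line. Red points were higher and blue points lower at an adjusted p under 0.05. The S phase genes all lie above 0, whereas the histone genes lie on both sides.

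Markers of the cell types that a nerve can hold were tested in the same way. Over all tested genes, 14.1% were higher and 12.3% lower. Of 15 macrophage markers 10 were higher, with summed levels of 273 to 312 CPM in WT and 471 to 617 CPM in *Nae1* cKO nerves. Of 10 fibroblast markers 4 were higher, of 10 endothelial markers 3 were lower, and none of 4 erythroid markers passed the test (edgeR, 0 at an unadjusted p under 0.05). Schwann cell lineage markers were 1 higher and 2 lower of 7, with a median log2 fold change of -0.075. Their summed level, 2340.2 to 2688 CPM in *Nae1* cKO and 2811 to 3042 CPM in WT nerves, was lower in every *Nae1* cKO nerve than in any WT nerve. A sum is weighted to the most abundant markers. The mean log2(CPM + 1) of the same markers overlapped, at 7.28 to 7.54 in *Nae1* cKO and 7.41 to 7.57 in WT nerves. Of 13 muscle markers 5 were lower (edgeR), and all 13 were lower at an unadjusted p under 0.05, with a median log2 fold change of -2.91. DESeq2 called all 13 lower, and edgeR without K2 called 0. Which cells held the histone messenger RNA, and the part of these cell types in the histone values, was not tested.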

How the data were processed

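The authors deposited, for each nerve, RSEM tables of expected counts, TPM and FPKM per gene, made from stranded total RNA libraries (ribosomal RNA depleted). FastQC 0.11.5, STAR, RSEM and GRCm38 are named in the submitters' processing notes. RSEM divides reads that fit several genes, so values of near-identical histone genes are estimates. Read length was not given in the sources used here.

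Expected counts were rounded and tested with edgeR 4.0.16 (low-count filter by group, TMM scaling, robust quasi-likelihood test, Benjamini-Hochberg adjustment over 17090 genes). limma 3.58.1 (voom, or TPM and FPKM on a log2 scale with pseudocounts of 1 or 0.1) and DESeq2 1.42.0 served as alternatives, and the scripts were tested on simulated data. SEs are the log2 fold change over the square root of the F statistic. Sums over genes received no test. Nerves were separate samples with 4 per group, and no 2 libraries of the same group agreed within sampling noise. The labels do not say that nerves came from separate mice, so p-values measure the spread between these samples. For *Nae1*, an exact permutation test between the groups gave p = 0.029 (two-sided), the smallest that 4 against 4 allows.

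Genes and lists were chosen with earlier results of these data known. Named were *Nae1*, in each class the 4 genes with the highest mean CPM and those with the largest and smallest fold change, every lower gene, and, by adjusted p, up to 5 genes of each list. Other genes were named after their values were seen. Transcript sequences and gene models came from GENCODE (GRCm38), where all 69 identifiers matched, and promoters from RefSeq.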

Additional observations from a re-analysis of the deposited data

Results flagged for a closer look

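Among the 120 groups of 4 nerves examined (60 genes or sums in each genotype), 7 held a nerve far from the other 3 by Dixon's criterion, and chance gives about 1 in 20. Of these, 4 were *Nae1* cKO nerve K2, below the other 3 *Nae1* cKO nerves each time. *Asf1b* was at 3.73 CPM in K2 against 9.68 to 10.2 CPM, *Cenpa* at 12.2 CPM against 23.1 to 23.97 CPM, *Mms22l* at 17.6 CPM against 26.3 to 27.5 CPM, and *H2afv* at 27.7 CPM against 34.7 to 35.5 CPM. WT nerve L4 lay below the other WT nerves for *Hist1h3c*, at 11.05 CPM against 16 to 16.8 CPM, and for *Fen1*, at 10.5 CPM against 11.3 to 11.4 CPM. *H1f0* was at 102 CPM in *Nae1* cKO nerve L8, against 113 to 114 CPM in the other *Nae1* cKO nerves. *Hist1h3c* was the only histone gene of the replication-dependent set among them.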

How the results depend on the processing

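The number of histone genes higher lay between 7 and 14 under every alternative, and the median log2 fold change between 0.073 and 0.41. The count of lower genes, 2, became 1 with limma-voom, 0 with library totals (2 at an unadjusted p under 0.05), 0 with limma on log2(TPM + 1) or log2(TPM + 0.1) (1 unadjusted each), 0 on log2(FPKM + 1) (0 unadjusted) and 4 in L nerves alone, and ranged from 0 to 4 as single nerves were left out. Higher by over 2-fold, 1 gene, became 2 with limma-voom, in L nerves alone and without K1 and L4, 3 with library totals and log2(FPKM + 1), and 4 on either TPM scale, and ranged from 1 to 3 with a nerve left out. On the TPM scales *Nae1* itself missed the threshold, at log2 fold changes of -0.44 (adjusted p = 0.24, limma) and -0.46 (adjusted p = 0.25). S phase genes higher numbered 7 on either TPM scale and 6 without K1 and L4. Chaperones higher numbered 3 in those settings and 13 on log2(FPKM + 1), and 5 to 10 with a nerve left out. Transcription and processing genes higher numbered 7 with library totals, 0 on both TPM scales (2 and 1 unadjusted) and 0 without K1 and L4 (2 unadjusted), and 1 to 7 with a nerve left out. Variants higher numbered 1 on both TPM scales and without K1 and L4. Log2 ratios of mean levels, *Nae1* cKO over WT, changed for sums. The summed level of H1 genes was 0.35 in TPM, 0.34 in FPKM and -0.18 without K1 and L4, and -0.023 to 0.18 with a nerve left out. The summed level of H2A genes was 0.12 with library totals, 0.087 in TPM and 0.14 in FPKM, and -0.22 to 0.12 with a nerve left out. The summed level of H2B genes was 0.74 in TPM and 0.73 in FPKM. The summed level of H4 genes was -0.012 in L nerves alone and -0.0986 without K1 and L4, and -0.00521 to 0.33 with a nerve left out. The summed level of histone genes was -0.012 without K1 and L4. TPM and FPKM were not scaled by the trimmed mean of M-values. The median log2 fold change of all tested genes was 0.10 on log2(TPM + 1) and 0.13 on log2(FPKM + 1). The causes were not tested. Among 53 named or called genes, 987 of 1108 single values kept their side of the threshold, and no direction of a called gene reversed. No paired analysis was possible because the nerves of the groups share no sample name or number. The letter K is shared by 1 nerve of each group, and the labels do not say what it marks. With the letter as a term, 2798 genes were higher and 2458 lower, against 2411 and 2099 without it, and 12 histone genes were higher and 2 lower. Of the 53 genes, 1 changed side, *Hist1h2ab*, which passed (adjusted p = 0.043). At this depth the 6 untested genes could not be compared.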
